A study of Homo sapiens with 4 samples.

Results

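The nuclear genes that encode subunits of the mitochondrial respiratory chain and of the ATP synthase were read in 4 RNA-seq libraries of human colorectal cancer cells. They were chosen by symbol as the protein-coding genes named NDUFA, NDUFB, NDUFC, NDUFS or NDUFV with a number, SDHA to SDHD, those beginning with UQCR, CYC1, COX4 to COX8, and those beginning with ATP5. The table of 58735 genes, of which 19951 are protein-coding, held 91 such genes. Of these, 36 belong to complex I, 4 to complex II, 10 to complex III, 19 to complex IV and 20 to complex V or genes named after it, and 2 are readthrough genes that join a subunit gene to its neighbour. Averaged over the 4 libraries, 80 of the 91 reached an FPKM of 1 or more and were compared. FPKM counts the fragments on a gene after division by its length in kilobases and by the size of the library. The symbol rule missed NDUFAB1, a complex I subunit, which was read with the carriers below.

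The HCT116 and the LOVO line were each sequenced as adherent cells and as spheroids, with 1 library per condition. HCT116 and LOVO are established colorectal cancer lines, and the labels give the genotype of every library as WT. The adherent cells grew in serum-containing medium without drug. The spheroids grew for weeks in serum-free medium with growth factors on a surface that prevents attachment, with oxaliplatin at 1 μg/ml in the description of the culture, whereas the labels give 1 mg/ml and name no agent. Which of these doses is right could not be settled. Growth form, medium and drug therefore differ together between the groups and cannot be told apart. Differences within a line therefore lack replicate error and carry no p-value.

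The respiratory chain lies in the inner mitochondrial membrane. Complex I takes electrons from NADH and complex II from succinate, complex III passes them from ubiquinol to cytochrome c, and complex IV passes them to oxygen. Complexes I, III and IV pump protons, and complex V, the ATP synthase, uses the proton gradient to make ATP. Most subunits are encoded in the nucleus and imported, whereas a small set that includes the catalytic centres of complex IV is encoded by mitochondrial DNA. Transcription factors such as NRF1, GABPA, YY1 and SP1 are known to act at promoters of many of the nuclear genes.

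Reads on genes numbered from 15483569 in HCT116 spheroids to 20429147 in adherent HCT116 cells, and 100% of the values above 0 were whole reads once multiplied by the gene length. The share of reads on the mitochondrial chromosome was 6.77% and 11.1% in adherent and spheroid HCT116 cells and 3.65% and 3.97% in adherent and spheroid LOVO cells. The libraries labelled LOVO stood apart in their epithelial markers. Of 10 markers of colorectal epithelium, 6 and 7 reached an FPKM of 1 in the HCT116 libraries, against 3 and 4 in the LOVO libraries, with a summed FPKM of 1754 and 1288 against 327 and 187. EPCAM was at 85.6 and 79.3 FPKM in HCT116 but at 0.930 and 1.5 in LOVO, CDH1 was below 0.12 FPKM in both LOVO libraries, and CDX2 had 0 reads there. VIL1 had 0 reads in LOVO but was also low in HCT116, with 6 and 11 reads. In LOVO most of the summed epithelial FPKM came from the keratins KRT8 and KRT18, which were expressed in both lines. The summed FPKM of 5 fibroblast markers was 5.52 and 15.9 in HCT116 and 52.5 and 71.6 in LOVO, in LOVO mostly from LUM and DCN, while 4 leukocyte markers together stayed below 2 FPKM in every library. PECAM1, an endothelial marker, was at 6.35 FPKM in LOVO spheroids and below 0.4 FPKM elsewhere. The part these markers play in the values below was not tested, LOVO below means the libraries so labelled, and each line is given on its own.

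Promoter windows were read because the members are known to share transcription factors. RefSeq windows of GRCh38.p14, running from 250 bases before to 50 bases after a start site, were found for 71 of the 91 genes, 3 of them by an older symbol. Both strands were searched for an NRF1 motif (GCGCA and GCGC with any base between them), CCGGAAG (GABPA), AAGATGGCG (YY1) and GGGCGG (SP1), where CCGGAAG and AAGATGGCG can overlap in the letters AAG. The windows of 4 genes held at least 3 of the 4 motifs and are shown 5′ to 3′ on the strand of the gene, with motif matches in capitals. All of these genes lie on the minus strand, and the windows are chr21:25734855-25735154 for ATP5PF, chr1:17053983-17054282 for SDHB, chr19:1605413-1605712 for UQCR11 and chr3:48609597-48609896 for UQCRC1.
ATP5PF: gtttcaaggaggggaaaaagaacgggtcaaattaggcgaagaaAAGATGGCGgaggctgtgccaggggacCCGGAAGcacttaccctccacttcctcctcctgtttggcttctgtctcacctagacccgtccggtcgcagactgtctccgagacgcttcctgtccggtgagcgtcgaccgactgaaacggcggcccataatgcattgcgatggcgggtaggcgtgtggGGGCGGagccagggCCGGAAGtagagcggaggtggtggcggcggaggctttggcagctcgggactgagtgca
SDHB: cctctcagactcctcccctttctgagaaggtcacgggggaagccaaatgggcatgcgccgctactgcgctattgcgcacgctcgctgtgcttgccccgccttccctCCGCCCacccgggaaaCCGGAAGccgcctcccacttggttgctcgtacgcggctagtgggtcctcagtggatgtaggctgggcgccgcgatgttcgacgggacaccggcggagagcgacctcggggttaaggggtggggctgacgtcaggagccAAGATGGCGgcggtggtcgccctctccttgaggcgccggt
UQCR11: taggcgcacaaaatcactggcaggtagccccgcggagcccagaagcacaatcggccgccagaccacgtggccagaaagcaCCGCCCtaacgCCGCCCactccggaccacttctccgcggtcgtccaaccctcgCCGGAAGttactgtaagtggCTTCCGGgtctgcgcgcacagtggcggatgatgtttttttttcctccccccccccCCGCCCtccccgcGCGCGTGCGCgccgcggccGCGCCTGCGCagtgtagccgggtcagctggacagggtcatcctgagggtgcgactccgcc
UQCRC1: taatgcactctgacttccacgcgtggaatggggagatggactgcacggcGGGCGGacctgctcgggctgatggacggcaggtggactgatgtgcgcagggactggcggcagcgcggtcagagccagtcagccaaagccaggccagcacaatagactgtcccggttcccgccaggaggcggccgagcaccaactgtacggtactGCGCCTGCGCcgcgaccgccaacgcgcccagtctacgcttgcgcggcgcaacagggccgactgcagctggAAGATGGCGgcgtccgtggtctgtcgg

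The NRF1 motif was present in the windows of 17 of the 71 members (23.9%), against 6.98% of all 27305 genes with a window and 9.67% of the 15843 protein-coding genes among them. For GABPA the count was 21 of 71 (29.6%), against 12.2% and 16.5%, and for YY1 it was 9 of 71 (12.7%), against 2.14% and 3.21%. For SP1 it was 45 of 71 (63.4%), against 48.3% of all genes and 64.3% of protein-coding genes. A match is a description of the letters and not a binding site. The spheroid values of members with and without each motif were then set side by side. In LOVO the median log2 fold change of spheroids over adherent cells was -0.54 over the 16 compared members with the NRF1 motif and -0.58 over the 49 without it. With the GABPA motif it was -0.48 over 21 members, against -0.64 over the 44 without it, with the YY1 motif -0.57 over 8, against -0.58 over 57, and with the SP1 motif -0.69 over 43, against -0.48 over 22. In HCT116 the same medians were -0.26 and -0.28 for NRF1, -0.22 and -0.31 for GABPA, -0.29 and -0.27 for YY1, and -0.31 and -0.26 for SP1.

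The median FPKM of the members compared was 25.1 and 18.7 in adherent and spheroid HCT116 cells and 36.8 and 23.6 in adherent and spheroid LOVO cells. Over all 91 members the summed FPKM was 3197 and 2360 in adherent and spheroid HCT116 cells and 4799 and 2926 in adherent and spheroid LOVO cells. ATP5F1B, the catalytic beta subunit of the ATP synthase, had the highest mean level per length, at 342 FPKM. NDUFS5, COX8A, UQCRH and CYC1 followed on this scale. The gene lengths in the table count every annotated exon and were a median of 1.75 times, and up to 8.98 times, the length of the principal transcript. Per kilobase of principal transcript ATP5F1B remained the highest member, COX4I1, a regulatory subunit of complex IV, moved from rank 18 to rank 2, and COX8A moved from rank 3 to rank 9. The order of levels between genes therefore depends on the length used, while a ratio between libraries does not.

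**Figure D1:**
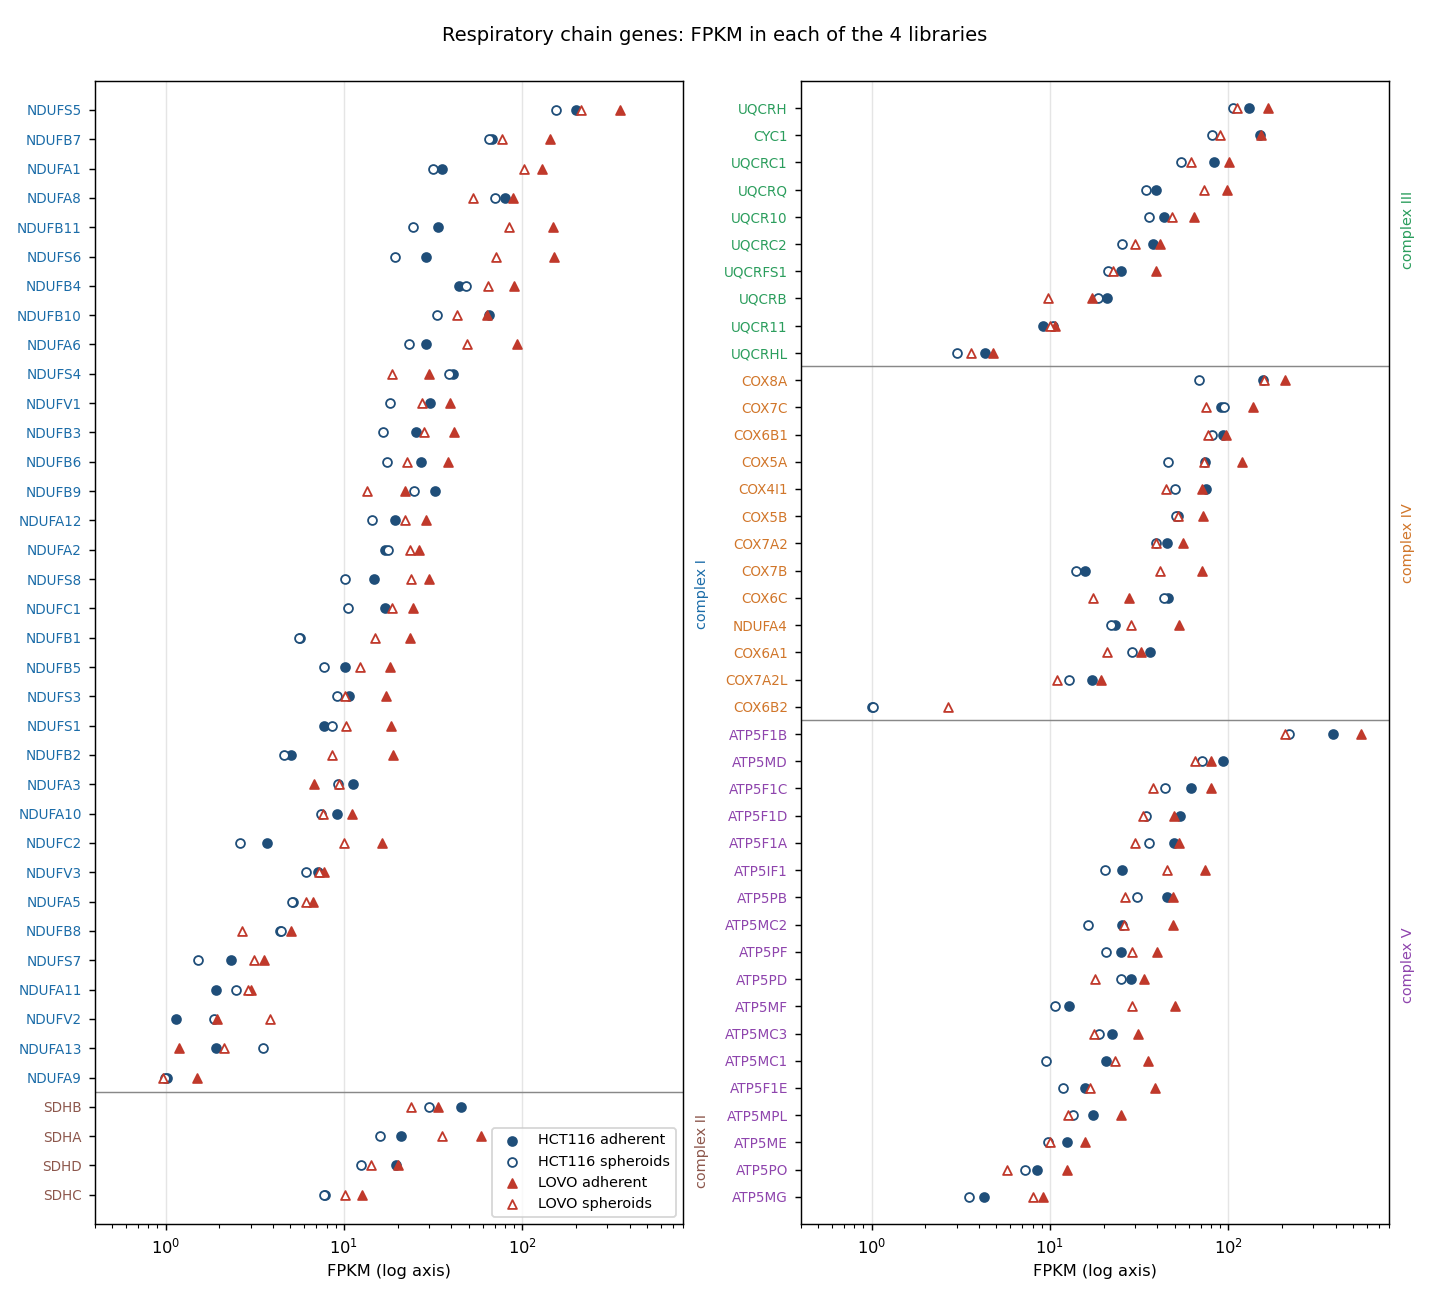
FPKM (log axis) of 79 of the 80 members compared, 1 row per gene, grouped by complex and ordered by mean. Circles are HCT116 and triangles LOVO, filled for adherent cells and open for spheroids; COX6B2 has no filled triangle because it had 0 reads in adherent LOVO cells, and open symbols lie to the left of filled ones in most rows of both lines.

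In HCT116, 69 of the 80 members had a lower FPKM in spheroids than in adherent cells and 11 a higher one, while 53.4% of all 14429 genes compared, those averaging 1 FPKM or more, were lower and 45.8% higher. The median log2 fold change of the members was -0.28 on the log2(FPKM + 1) scale, a scale on which differences between low values come out too small, and that of all genes compared was -0.03. Past a log2 fold change of -1 there were 2 members, COX8A and ATP5MC1, beside 3.33% of all genes, and 0 were above 1, beside 2.19%. Below -0.5 there were 20 members (25% of the 80), beside 13.6% of all genes, and above 0.5 there was NDUFA13, beside 10.7%. No member was above 2 or below -2, beside 0.201% and 0.506% of all genes. The 95% exact (Clopper-Pearson) counting interval of the ratio lay below 0 on the log2 scale for 58 members, above 0 for 6 and included 0 for 16. These intervals cover counting error only. In bulk RNA a lower level in every cell and a smaller share of expressing cells cannot be told apart.

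The lower values in HCT116 were partly shared with other abundant genes and depended on the scaling. Among the 2347 genes averaging 20 FPKM or more, 71.7% were lower in HCT116 spheroids, with a median of -0.26, while of the 51 members at that level 47 were lower, with a median of -0.37. When the library size was taken from nuclear genes in place of the authors' scaling, 53 of 81 members were lower, beside 38.1% of all genes, and the members' median was -0.094 while that of all genes was 0.11.

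In LOVO, 76 of the 80 members were lower in spheroids and 4 were higher, beside 53.5% of all genes lower and 45.5% higher. The median log2 fold change of the members was -0.60, and that of all genes was -0.06. Below -1 there were 5 members, ATP5F1B, ATP5F1E, NDUFS6, NDUFB2 and ATP5F1C, beside 7.85% of all genes, and above 1 there was COX6B2, beside 8.57%. With TPM this split became 3 above 1 and 1 below -1, with the library size from nuclear genes 1 and 1, and after centring on the median of all genes 1 and 3. Below -0.5 there were 48 members (60%), beside 25% of all genes, and above 0.5 there were 3, beside 20%. No member was above 2 or below -2 on the log2(FPKM + 1) scale, beside 1.81% and 0.943%. COX6B2, with 0 reads in adherent LOVO cells, was at 1.89 on this scale and at up to 8.08 over 6 scalings and pseudocounts. Counting intervals lay below 0 for 73 members, above 0 for 4 and included 0 for 3. Of the genes averaging 20 FPKM or more, 70.9% were lower with a median of -0.40, while all 51 members at that level were lower with a median of -0.67. With TPM in place of FPKM 70 of 84 members were lower beside 38.5% of all genes, and with the library size from nuclear genes 68 of 81 were lower beside 42.3%.

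**Figure D2:**
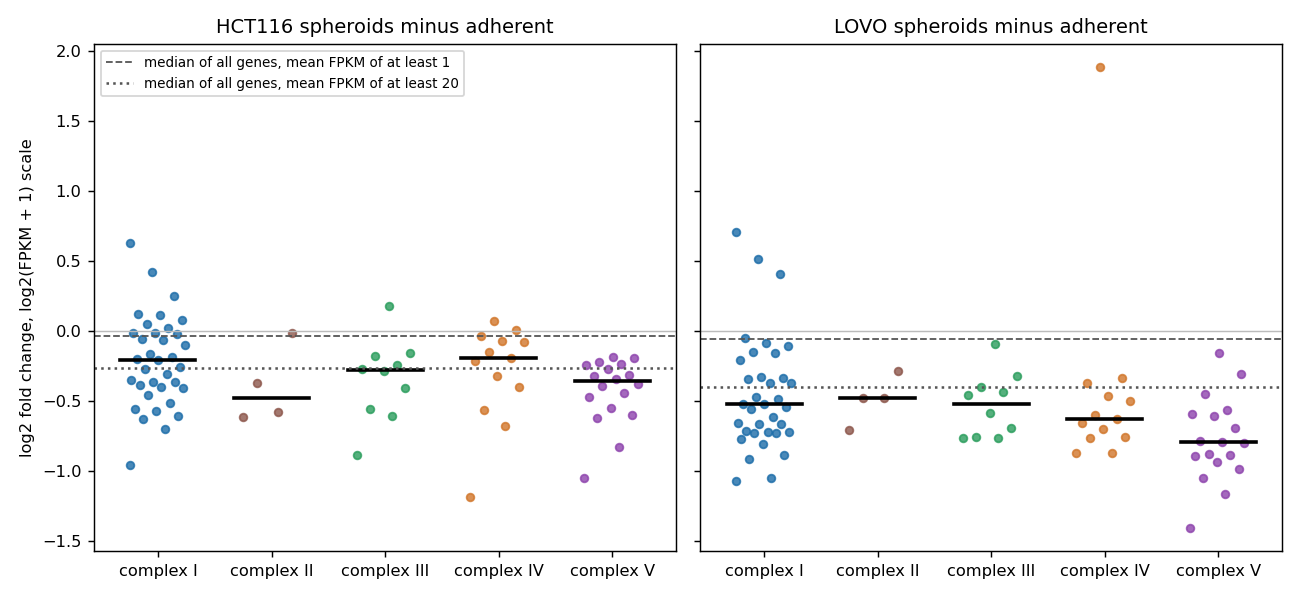
Log2 fold change of spheroids over adherent cells on the log2(FPKM + 1) scale, 1 point per member, by complex, in HCT116 (left) and LOVO (right). Thick bars are complex medians; the dashed and dotted lines are the medians of all genes averaging 1 FPKM or more (-0.03 and -0.06) and 20 FPKM or more (-0.26 and -0.40), and complex V is below 0 throughout in both panels.

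Read in both lines, 68 of the 80 members were lower in the spheroids of each, beside 35.1% of all genes, 3 were higher in each, beside 27.2%, and 9 went opposite ways. These shares are over all genes averaging 1 FPKM or more and are not matched for level. At 20 FPKM or more, 47 of the 51 members were lower in both lines. Of all genes at that level, 71.7% were lower in HCT116 and 70.9% in LOVO, and the share lower in both is not given here. In the LOVO comparison 59 of the 80 had the lower log2 fold change of the pair, beside 52.2% of all genes, with a median difference of -0.29, against -0.03 over all genes. This contrast is not matched for level either. At 20 FPKM or more the median of all genes was -0.26 in HCT116 and -0.40 in LOVO, against -0.37 and -0.67 for the members. Across the 80 members the fold changes of the lines correlated with Pearson's r = 0.377, and across all genes with r = 0.302. Genes within a library are not independent and share its depth and scaling. The member with the strongest lower value common to both lines was ATP5F1B, with -0.83 in HCT116 and -1.41 in LOVO, followed by CYC1, with -0.88 and -0.76. The 3 members above 0 in both were NDUFV2, NDUFA13 and COX6B2. COX6B2 was at 1.00 and 1.01 FPKM in HCT116, with a counting interval that included 0 and a value that turned lower under 1 of 6 scalings and pseudocounts. All 3 were low in FPKM, and over 40% of the principal transcript of each occurs in transcripts of other annotated genes.

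**Figure D3:**
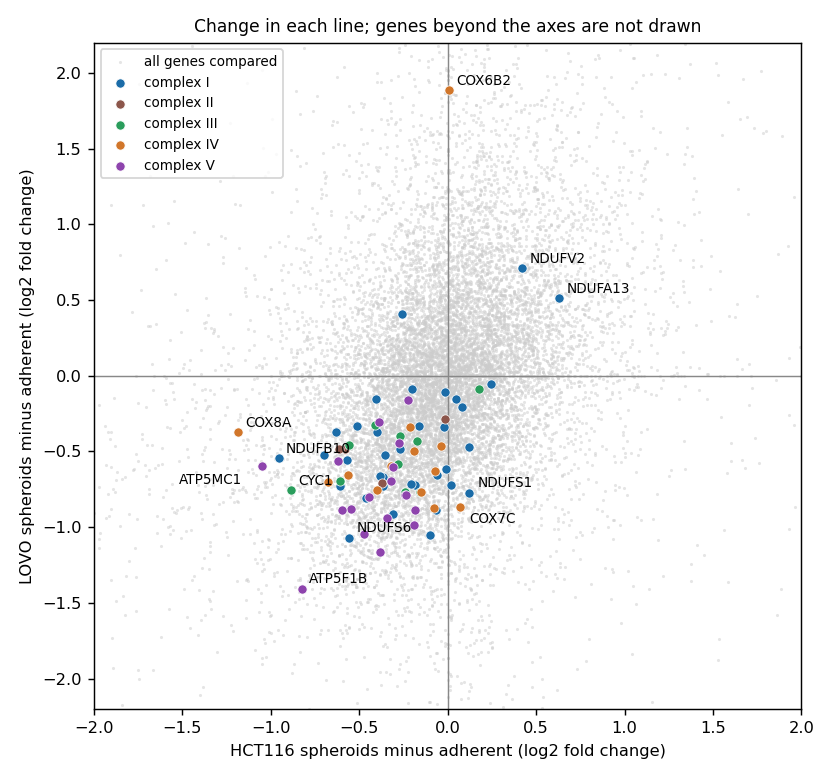
Log2 fold change of spheroids over adherent cells in HCT116 (x axis) and LOVO (y axis) on the log2(FPKM + 1) scale for the members, coloured by complex, and for all genes compared (grey). Of the 80 members, 68 lie in the lower left quadrant.

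Spheroids were tested against adherent cells with the lines taken as replicates. A limma fit with cell line as covariate, which leaves 1 residual degree of freedom, gave 0 genes with a Benjamini-Hochberg adjusted p under 0.05, and the smallest limma adjusted p was 0.462. At an unadjusted limma p under 0.05 there were 1545 genes (10.7%) and 10 members, all lower in spheroids, beside 6.43% of all genes that were lower at that p. These were ATP5F1B, ATP5MC1, CYC1, ATP5MC2, NDUFS6, NDUFB10, ATP5PB, NDUFB6, ATP5F1C and COX5A. The lower values of single members were thus not established by a test.

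In complex I, 27 of 35 members were lower in HCT116 spheroids and 32 of 35 in LOVO spheroids, with medians of -0.21 and -0.53. The 7 core subunits, which carry the flavin and the iron-sulphur clusters, had medians of -0.21 and -0.33. NDUFV1, which binds NADH and the flavin, had an FPKM of 30.3 in adherent and 18.2 in spheroid HCT116 cells and of 39.5 and 27.2 in adherent and spheroid LOVO cells. Both spheroid libraries lay below their adherent counterparts, with log2 fold changes of -0.70 and -0.52. NDUFS1, the largest core subunit, was at 7.78 and 8.52 FPKM in HCT116 and at 18.3 and 10.3 FPKM in LOVO. It was slightly higher in HCT116 spheroids and lower in LOVO spheroids. NDUFV2, which holds an iron-sulphur cluster, was at 1.14, 1.87, 1.95 and 3.83 FPKM in adherent and spheroid HCT116 and adherent and spheroid LOVO cells, from 63, 85, 95 and 209 reads. Its spheroid value was the higher in each line, but 82.3% of its principal transcript occurs in the transcripts of another annotated gene, so reads could be split or left uncounted. The row of an NDUFV2 pseudogene held 34, 25, 56 and 30 reads in the same order, up to 58.9% as many as NDUFV2.

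Among the accessory subunits of complex I, NDUFB10 had the largest difference in HCT116. Its FPKM was 65.1 in adherent cells and 33.1 in spheroids, a log2 fold change of -0.96, and in LOVO it was 63.2 and 43.0, a log2 fold change of -0.54. NDUFS6, a subunit with a zinc site that is needed for assembly, was at 29 and 19.4 FPKM in HCT116 and at 150 and 71.1 FPKM in LOVO. Both lines were lower in spheroids, by -0.56 and -1.07 on the log2 scale, and the LOVO spheroids still lay above both HCT116 libraries. NDUFB2 was at 5.04 and 4.63 FPKM in HCT116, where the counting interval of the ratio included 0, and at 18.9 and 8.58 FPKM in LOVO. NDUFS5, the most abundant complex I member, was at 201 and 155 FPKM in HCT116 and at 354 and 213 FPKM in LOVO. NDUFB7 was at 67.9 and 64.9 FPKM in HCT116 and at 143 and 77.0 FPKM in LOVO.

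A few accessory subunits of complex I stood on the higher side. NDUFA13, also known as GRIM-19, was at 1.92 and 3.52 FPKM in adherent and spheroid HCT116 cells and at 1.19 and 2.13 FPKM in LOVO. Its log2 fold changes were 0.63 and 0.51 from 58 to 160 reads per library, with 42.5% of its principal transcript shared with other genes. NDUFA3 was at 11.3 and 9.28 FPKM in HCT116 and at 6.78 and 9.34 FPKM in LOVO, so the spheroid libraries were near each other while the adherent ones lay on either side of them. NDUFA11 was at 1.93 and 2.47 FPKM in HCT116 and at 3.03 and 2.89 FPKM in LOVO, and 65.2% of its principal transcript is shared. NDUFB4 was at 44.3 and 48.2 FPKM in HCT116 and at 89.9 and 64.7 FPKM in LOVO.

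Complex II, succinate dehydrogenase, is encoded wholly in the nucleus and also works in the citric acid cycle. In each line all 4 members were lower in spheroids, with a median of -0.48, although SDHC turned higher in HCT116 under 2 of 6 scalings and pseudocounts. SDHA, the flavoprotein that oxidises succinate, was at 20.9 and 15.9 FPKM in HCT116 and at 58.5 and 35.5 FPKM in LOVO. SDHB, the iron-sulphur subunit, was at 45.2 and 29.9 FPKM in HCT116 and at 33.6 and 23.8 FPKM in LOVO. The lines thus differed in opposite directions for these partners, SDHA being the higher in LOVO and SDHB the higher in HCT116. Rows of SDHA pseudogenes held up to 28.3% as many reads as SDHA in a library, and 41.8% of the principal transcript of SDHA is shared with other genes. The gene sharing most of it, MUC20-OT1, held 663 and 764 reads in adherent and spheroid HCT116 cells and 305 and 424 in LOVO. SDHD, a membrane anchor, was at 19.7 and 12.5 FPKM in HCT116 and at 20.2 and 14.2 FPKM in LOVO. SDHC, the other anchor, was at 7.84 and 7.74 FPKM in HCT116, with a counting interval that included 0, and at 12.6 and 10.1 FPKM in LOVO.

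In complex III, 9 of 10 members were lower in HCT116 spheroids and all 10 in LOVO spheroids, with medians of -0.28 and -0.52. CYC1, the haem-bearing cytochrome c1, was at 150 and 80.7 FPKM in adherent and spheroid HCT116 cells and at 152 and 89.6 FPKM in LOVO. The adherent libraries were near each other and both spheroid libraries lay well below them, with log2 fold changes of -0.88 and -0.76. UQCRFS1, the Rieske iron-sulphur protein, was at 25.1 and 21.1 FPKM in HCT116 and at 39.1 and 22.6 FPKM in LOVO. UQCRC1, a core protein whose promoter is shown above, was at 82.9 and 54.1 FPKM in HCT116 and at 101 and 61.8 FPKM in LOVO. UQCR11, a small subunit whose window held the most matches of the 4 shown, was at 9.12 and 10.4 FPKM in HCT116 and at 10.7 and 10.0 FPKM in LOVO, and in each line the counting interval of the ratio included 0. UQCRH, the hinge protein, was at 130 and 107 FPKM in HCT116 and at 167 and 111 FPKM in LOVO, and 43.9% of its principal transcript also occurs in its near copy UQCRHL, which was at 3.0 to 4.78 FPKM.

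In complex IV, 11 of 13 members were lower in HCT116 spheroids and 12 of 13 in LOVO spheroids, with medians of -0.19 and -0.63. COX8A had the lowest log2 fold change of all members in HCT116. Its FPKM was 156 in adherent cells and 68.2 in spheroids, a log2 fold change of -1.19, with a counting interval from -1.34 to -1.06, and in LOVO it was 207 and 159, a log2 fold change of -0.37. HCT116 spheroids thus stood alone as the low library for this gene. COX7C went the other way, at 90.5 and 95 FPKM in HCT116 and at 138 and 75.1 FPKM in LOVO. COX4I1 was at 75.2 and 50.5 FPKM in HCT116 and at 70.8 and 44.5 FPKM in LOVO, with log2 fold changes of -0.57 and -0.66. COX5A was at 74.1 and 45.9 FPKM in HCT116 and at 120 and 73.2 FPKM in LOVO.

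Several complex IV subunits exist as tissue or condition-specific pairs. In most of them the common form carried nearly all of the signal. The COX7A family was read with COX7A2L beside the pair of COX7A2 and COX7A1. Within that pair COX7A2 was at 39.2 to 55.8 FPKM and COX7A1 at 0.388 to 0.887 FPKM. COX4I1 made up 99.7% to 100% of the COX4 pair in every library, COX6A1 made up 100% of the COX6A pair against the muscle form COX6A2, and COX7B 100% of its pair. COX8A made up 99.8% to 100% of the COX8 pair and COX6B1 96.6% to 100% of the COX6B pair. Within the COX7A family, COX7A2 held 71.8% to 77.5%, COX7A2L, which takes part in supercomplexes, held 21.7% to 27.3%, and the muscle form COX7A1 held 0.514% to 1.67%. COX6B2, the testis form, was at 1.00 and 1.01 FPKM in HCT116, had 0 reads in adherent LOVO cells and was at 2.70 FPKM from 207 reads in LOVO spheroids. Against the level of 3 reads in adherent LOVO cells, 0.0439 FPKM, this was at least 61.5-fold higher, but 41.8% of its principal transcript is shared with other genes. NDUFA4L2, which is induced in low oxygen, was under the mean of 1 FPKM and outside the counts. It was at 0.297 and 0.255 FPKM in HCT116 and at 0.318 and 2.18 FPKM in LOVO, from 17, 12, 16 and 123 reads, so LOVO spheroids stood above the other libraries. Its partner NDUFA4 was at 23.2 and 21.9 FPKM in HCT116 and at 53.1 and 28.6 FPKM in LOVO, and held 98.7%, 98.9%, 99.4% and 92.9% of the pair.

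The median of complex V was -0.36 in HCT116, where complex II was lower, and -0.80 in LOVO, where it was the lowest of the 5 complexes, and in each line all 18 members compared were lower in spheroids, although ATP5PD turned higher in HCT116 under 1 and ATP5MG in LOVO under 2 of 6 scalings and pseudocounts. In the F1 head, where ATP is made, the 5 members had medians of -0.47 and -1.05. ATP5F1B lies on chr12:56638175-56646068, minus strand, of GRCh38. Its FPKM was 389 in adherent and 219 in spheroid HCT116 cells and 552 and 208 in adherent and spheroid LOVO cells, from 18402, 8537, 22992 and 9701 reads. The adherent lines thus differed by more than the spheroids did, and both spheroid libraries lay below both adherent ones. Its ratio of spheroids to adherent cells was 0.563 in HCT116 and 0.376 in LOVO. ATP5F1A, the alpha subunit that alternates with beta, was at 49.4 and 36.1 FPKM in HCT116 and at 53.1 and 30.04 FPKM in LOVO. ATP5F1C, the rotating gamma shaft, was at 61.5 and 44.0 FPKM in HCT116 and at 79.5 and 37.9 FPKM in LOVO. ATP5F1E, the small epsilon subunit, was at 15.7 and 11.8 FPKM in HCT116 and at 38.7 and 16.7 FPKM in LOVO.

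The c-ring, which turns as protons pass, is made of 1 mature protein encoded by 3 genes that differ in their import sequences. ATP5MC1 was at 20.7 and 9.49 FPKM in adherent and spheroid HCT116 cells and at 35.4 and 23.1 FPKM in LOVO. ATP5MC2 was at 25.4 and 16.4 FPKM in HCT116 and at 49.0 and 26 FPKM in LOVO. ATP5MC3 was at 22.4 and 18.8 FPKM in HCT116 and at 31.1 and 17.5 FPKM in LOVO. The share of ATP5MC1 in the summed FPKM of the 3 genes was 30.2% and 21.2% in adherent and spheroid HCT116 cells and 30.6% and 34.7% in LOVO, so it was smaller in spheroids in HCT116 and larger in LOVO. The size of this share depends on the gene length used. Per kilobase of principal transcript ATP5MC1 had the highest mean of the 3, at 94.4, against 59.8 for ATP5MC2 and 27.8 for ATP5MC3. The peripheral stalk, which holds the head still, had medians of -0.23 and -0.88 over 4 members. The small membrane subunits had medians of -0.31 and -0.61 over 5 members, and ATP5MD, the highest of them per length in the table though not per kilobase of principal transcript, was at 93.7 and 71.2 FPKM in HCT116 and at 80.4 and 64.8 FPKM in LOVO. ATP5IF1, which inhibits the enzyme when it runs backwards, was at 25.5 and 20.3 FPKM in HCT116 and at 74.0 and 45.4 FPKM in LOVO.

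The 11 members left out of the counts were NDUFA7, NDUFA4L2, COX7A1, COX8C, COX4I2, COX7B2, COX6A2, ATP5S, ATP5MGL and both readthrough genes. COX7B2, COX6A2 and NDUFC2-KCTD14 had 0 reads in every library, COX8C and COX4I2 had at most 3 reads in any, ATP5MGL at most 4 and ATP5MF-PTCD1 at most 7. COX7A1 had 7 to 15 reads. NDUFA7 was at 0.592 to 1.35 FPKM from 15 to 32 reads, and 78.8% of its principal transcript is shared with another gene. ATP5S, a coupling factor related to the synthase, was at 0.712 and 0.933 FPKM in HCT116 and at 1.32 and 0.620 FPKM in LOVO.

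Other genes of the pathway were read from lists chosen with earlier results of these data known. The 13 subunits encoded by mitochondrial DNA were all higher in HCT116 spheroids, with a median log2 fold change of 0.38, from 0.25 for MT-ND4L to 0.87 for MT-CYB. In LOVO 5 were higher and 8 lower, with a median of -0.05, from -0.55 for MT-ND6 to 0.71 for MT-ND2. In HCT116 the median of the nuclear members, -0.28, and that of the mitochondrial subunits thus lay on opposite sides of 0, while 11 of the 80 nuclear members were higher as well. The mitochondrial chromosome took 6.77% of the reads of adherent and 11.1% of the reads of spheroid HCT116 cells, and the part of this share in the members' values was not tested.

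Of all genes compared, 53.4% were lower in HCT116 spheroids and 53.5% in LOVO spheroids. Of those averaging 20 FPKM or more, 71.7% and 70.9% were lower. These shares stand beside each list that follows. Of 44 assembly factors compared, out of 47 listed, 36 were lower in HCT116 spheroids with a median of -0.19, and 37 in LOVO with a median of -0.38. In HCT116 they ran from UQCC3, a complex III assembly factor, at -0.95 to COX20 at 0.93, and in LOVO from TACO1 at -1.21 to COX14 at 0.50. All 14 genes of the citric acid cycle were lower in HCT116 and 13 in LOVO, with medians of -0.38 and -0.47. FH, fumarase, was the lowest in both, at -0.95 and -1.39, and IDH2 was the single gene on the higher side in LOVO, at 0.17. SUCLA2 had the highest value in HCT116, at -0.06. Of 12 carriers and exchange genes, 11 were lower in HCT116 and 12 in LOVO, with medians of -0.58 and -0.63. SLC25A5, an ADP/ATP carrier, was at 324 and 143 FPKM in HCT116 and at 320 and 189 FPKM in LOVO. The log2 fold changes of this list ran from SLC25A5 at -1.18 to VDAC3 at 0.18 in HCT116. In LOVO they ran from SLC25A6 at -1.01 to ETFDH at -0.12.

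Of 12 regulators of mitochondrial biogenesis, 11 were lower in HCT116 and 9 in LOVO, with a median of -0.40 in each. NRF1, whose motif is described above, was at 7.47 and 4.13 FPKM in HCT116 and at 7.80 and 4.10 FPKM in LOVO. GABPA was at 7.97 and 7.93 FPKM in HCT116 and at 8.65 and 4.62 FPKM in LOVO. MYC was the lowest of the list in HCT116, at 107 and 57.2 FPKM, and was at 75.03 and 74.6 FPKM in LOVO. PPARGC1A, a coactivator of biogenesis, had 1 and 6 reads in HCT116 and was at 5.36 and 2.73 FPKM in LOVO. In HCT116 it was the single regulator on the higher side, with a log2 fold change of 0.04. In LOVO the list ran from TFB2M at -0.98 to ESRRA at 0.36, with POLRMT at 0.26 and PPRC1 at 0.08 also higher. The 6 genes linked to respiration in low oxygen had medians of -0.16 and -0.31. They ran from LONP1, the mitochondrial protease, at -1.14 and -1.35 to MXI1 at 0.19 and 0.62, and PDK1 was at -0.02 and -0.38.

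**Figure D4:**
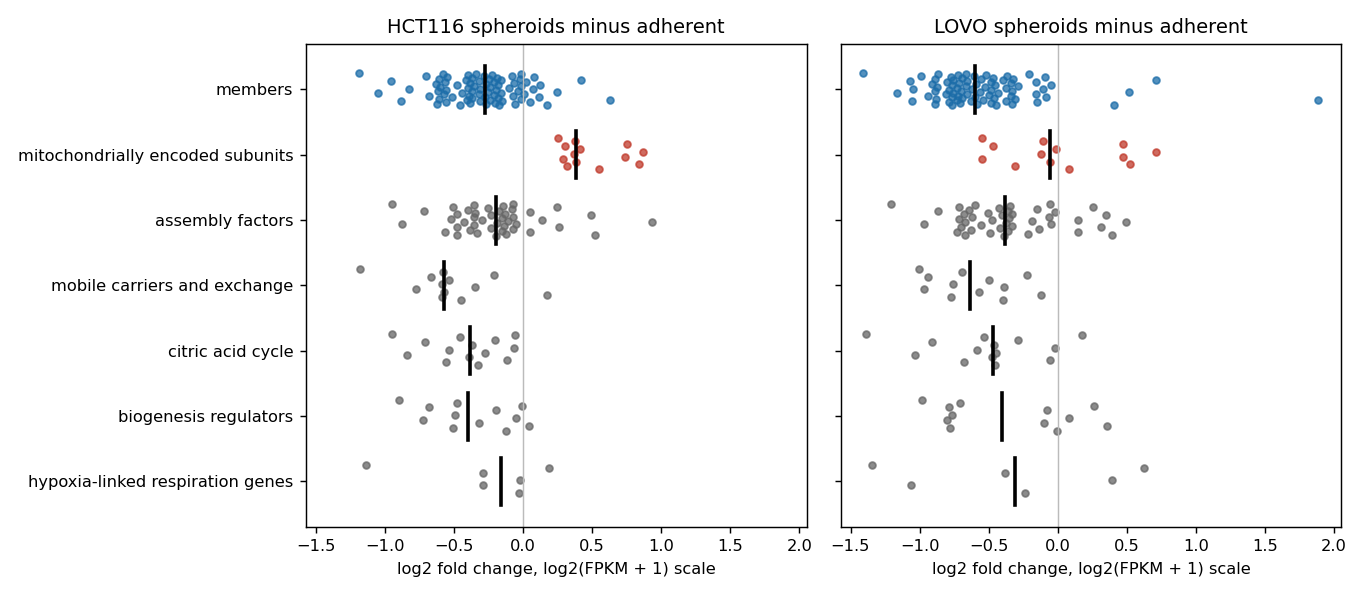
Log2 fold change of spheroids over adherent cells on the log2(FPKM + 1) scale in HCT116 (left) and LOVO (right), 1 point per gene, for the 80 members and 6 other gene lists, with black bars at the medians. The mitochondrially encoded subunits (red) lie above 0 in HCT116, median 0.38, and around 0 in LOVO, median -0.05.

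The lines were also compared with each other. Adherent LOVO cells had the higher FPKM for 67 of the 80 members, beside 53% of all genes, with a median log2 difference of 0.46 against 0.07. Above 1 there were 17 members, beside 17.4% of all genes, and below -1 there was COX6B2, beside 16.4%. Of the former, NDUFS6, COX7B and NDUFB11 were above 2, beside 5.26% (5.59% were below -2). Above 0.5 there were 36 members, beside 32.7%, and below -0.5 there were 4, beside 27.9%. Between the spheroids 54 members were higher in LOVO, beside 51.6%, with a median of 0.22 against 0.04. There 14 were above 1, beside 17.7%, and 2, COX6C and NDUFS4, were below -1, beside 15%. Above 0.5 there were 26, beside 31.1%, below -0.5 there were 6, beside 28.3%, and none was past 2 in either direction, beside 5.68% higher and 4.71% lower. The counts above 1 were near the shares of all genes. At 20 FPKM or more, 9 of the 51 members were lower in adherent LOVO cells, beside 37.4% of the 2347 genes at that level. Their medians were 0.48 and 0.31. Between the spheroids 18 of the 51 were lower in LOVO, beside 40.4%, with medians of 0.24 and 0.21. The spheroid difference was thus largely shared with other abundant genes. By complex, the spheroid difference ran from a median of 0.40 in complex I to -0.06 in complex V, and the adherent difference was 0.49 and 0.50 for these. With the library size from nuclear genes 24 of 81 members were lower in adherent LOVO cells, beside 53.7% of all genes, and 35 of 81 in LOVO spheroids, beside 54.1%. With TPM 16 of 84 were lower in LOVO spheroids, beside 42.6%. Past 1 in either direction, the 14 and 2 members of the spheroid comparison became 10 and 3 with the library size from nuclear genes.

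The lines were tested with growth form as a covariate in limma, a fit added after the results were seen, in which the adherent and the spheroid library of a line stand in for replicates and 1 residual degree of freedom is left. Its p-values measure the spread between these libraries and not between cultures. Of 14429 genes 24.7% had a Benjamini-Hochberg limma adjusted p under 0.05, 12.6% higher and 12.1% lower in LOVO. Of the 80 members 13 passed, all higher in LOVO, and without the filter on low values no gene did, the smallest limma adjusted p being 0.284. They were NDUFS6, NDUFB11, NDUFC2, NDUFA1, COX7B, ATP5MF, NDUFB1, ATP5IF1, SDHA, NDUFA6, UQCRQ, NDUFS8 and ATP5MG, with log2 differences over both growth forms from 0.97 for ATP5MG to 2.08 for NDUFS6 and limma adjusted p from 0.0129 to 0.0483. COX6C, the member furthest on the lower side, had a log2 difference of -0.99 and a limma adjusted p of 0.0592.

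The members that differed most between the adherent lines included all 3 on the X chromosome. NDUFB11, a membrane-arm subunit, was at 33.8 FPKM in adherent HCT116 cells and 149 in adherent LOVO cells, and at 24.3 and 84.5 in the spheroids. NDUFA1 was at 35.5 and 130 FPKM in the adherent lines and at 31.6 and 103 in the spheroids. COX7B was at 15.7 and 71.0 FPKM in the adherent lines and at 14.1 and 41.4 in the spheroids. The other 464 genes compared on the X chromosome had a median log2 difference of 0.77 between the adherent lines, against 2.10 for the 3 members. ATP5MF, a small membrane subunit of the ATP synthase, was at 12.8 and 50.4 FPKM in the adherent lines and at 10.6 and 28.8 in the spheroids, and 57.5% of its principal transcript is shared with other genes. Of complex I, NDUFC2 was at 3.70 and 16.4 FPKM in the adherent lines and at 2.6 and 10.0 in the spheroids, and NDUFB1 was at 5.66 and 23.4 and at 5.60 and 14.9. NDUFA6 was at 28.9 and 93.3 FPKM in the adherent lines and at 23.1 and 49.1 in the spheroids. UQCRQ, of complex III, was at 39.4 and 98.5 and at 34.7 and 72.8 FPKM. NDUFS8, a core iron-sulphur subunit of complex I, was at 14.8 and 30.1 and at 10.1 and 23.7 FPKM. In each of these genes both LOVO libraries lay above both HCT116 libraries. NDUFS6 on chromosome 5 had the largest difference, 2.33, while the other genes compared there had a median of 0.32.

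On chromosome 8, 3 of 4 members were lower in adherent LOVO cells and the median of the 4 was -0.40, close to the -0.42 of the other 493 genes there. NDUFB9 was at 32.3 and 24.8 FPKM in adherent and spheroid HCT116 cells and at 22.0 and 13.5 in LOVO, and UQCRB at 20.8 and 18.5 and at 17.2 and 9.72. COX6C was at 45.9 and 43.6 FPKM in adherent and spheroid HCT116 cells and at 27.6 and 17.5 in LOVO. NDUFS4, on chromosome 5, was also lower in LOVO, at 40.7 and 39.0 FPKM in HCT116 and at 29.97 and 18.7 in LOVO. NDUFB8, on chromosome 10, was at 4.37 and 4.44 FPKM in HCT116 and at 5.08 and 2.69 in LOVO, with 76.4% of its principal transcript shared with other genes. CYC1, on chromosome 8, did not share this difference, with a log2 difference of 0.02. On chromosome 19, where the other genes had a median of -0.30, the 10 members had a median of 0.13.

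**Figure D5:**
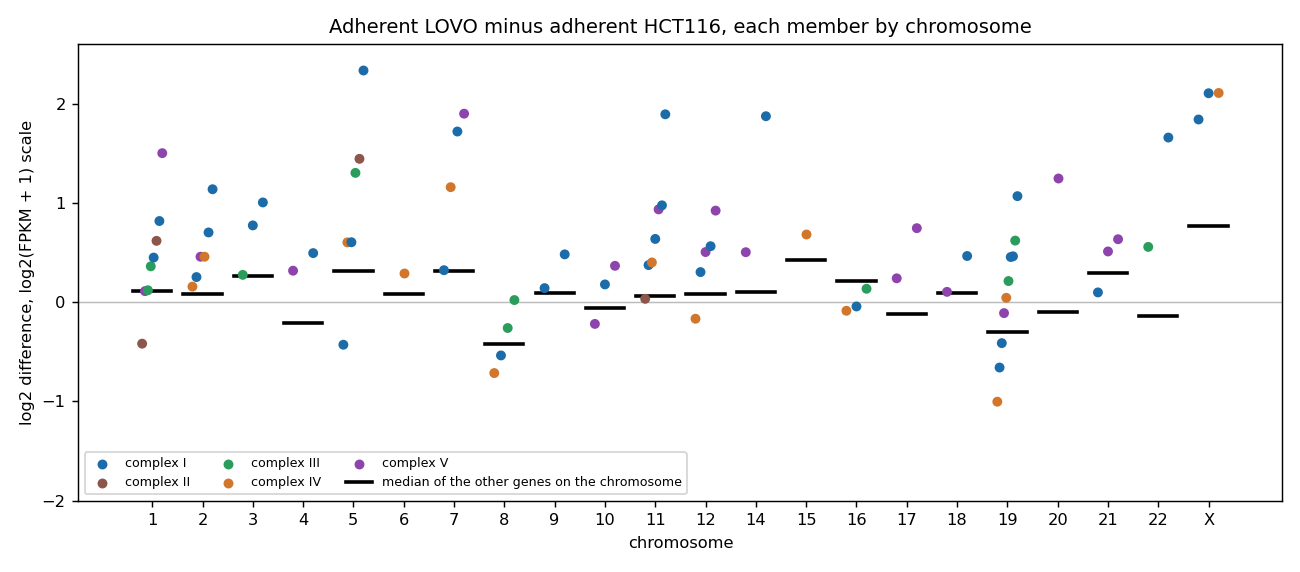
Log2 difference of adherent LOVO minus adherent HCT116 cells on the log2(FPKM + 1) scale for the 80 members, by chromosome and coloured by complex, with black bars at the median of the other genes compared on that chromosome. The 3 members on X lie between 1.84 and 2.11, above the bar at 0.77, and those on chromosome 8 lie around the bar at -0.42.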

How the data were processed

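RNA-seq of 4 libraries, 1 per condition, was analysed. The authors deposited FPKM values per gene, made from reads per gene, the gene length and a library size. The aligner and counter are not given in the sources used here, and edgeR is named for the study's own test. GEO's notes name mouse builds, whereas 58724 of the 58735 genes have the coordinates and exon length of GENCODE 29 on GRCh38. Reads were recovered by multiplying FPKM by length (a value within 0.01 of a whole number counted as whole), and the authors' library size was 0.998, 1.09, 0.907 and 1.05 times the reads on genes in adherent and spheroid HCT116 and LOVO cells. At a length of 1 kb, 3 reads equal 0.147 to 0.179 FPKM.

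Fold changes are differences of log2(FPKM + 1) over 14429 genes averaging 1 FPKM or more. A member was called past a log2 fold change of 1. limma 3.58.1 in R 4.3.3 was fitted on the 4 libraries with the line as covariate, and p-values there treat the lines as replicates. The same fit tested the lines with growth form as covariate, which was added after the results were seen. Members and gene lists were chosen with earlier results of these data known. Shared sequence is the share of 31-base windows of the principal GENCODE transcript found in transcripts of other genes. Named genes were the 5 highest and 5 lowest members of each comparison, those past 1, and the 2 most abundant per complex. To these were added members with an isoform pair and the extremes of each pathway list in the spheroid comparisons. Others were chosen after their values were seen, for their role. Alternatives were the pseudocount, the filter, the threshold, TPM, TMM-style scaling, centring, protein-coding genes and pseudogene reads; the nuclear library size, leaving out members with shared sequence and the level of 20 FPKM were added after the data were seen. Scripts were tested on simulated data. The single values of 1 member and of 1 marker gene are not reported here.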

Additional observations from a re-analysis of the deposited data

Results flagged for a closer look

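The difference between the lines' log2 fold changes (LOVO minus HCT116, spheroids over adherent cells) is given for 8 of the 9 members that were higher in the spheroids of 1 line and lower in those of the other. None of these differences was tested, since each line has 1 library per condition. COX7C had a difference of -0.94, from 0.07 in HCT116 and -0.87 in LOVO. NDUFS1 had -0.89, from 0.12 and -0.77. NDUFB8 had -0.74, from 0.02 and -0.72, and 76.4% of its principal transcript is shared with other genes. NDUFB4 had -0.59, from 0.12 and -0.47. NDUFA11 had -0.30, from 0.25 and -0.05. UQCR11 had -0.26, from 0.18 and -0.09. NDUFA2 had -0.20, from 0.05 and -0.16. NDUFA3 was the sole member of these 8 that was lower in HCT116 and higher in LOVO, with a difference of 0.67, from -0.26 and 0.41.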

How the results depend on the processing

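No median of the members turned its sign under the alternatives run, but sizes depended on the scaling, and in LOVO the members past 1, 1 higher and 5 lower as reported, were 3 higher and 1 lower with TPM and 1 and 1 with the nuclear library size. With the library size from nuclear genes, members past a log2 fold change of 1 numbered 0 in HCT116 (2 as reported) and 2 in LOVO (6), and the members' median was -0.094 in HCT116 (-0.28), -0.38 in LOVO (-0.60), 0.30 between the adherent lines (0.46) and 0.088 between the spheroids (0.22). That scaling leaves out mitochondrial reads and also drops the authors' library size. The authors' size was 0.998 and 1.09 times the reads on genes in adherent and spheroid HCT116 cells, and 0.907 and 1.05 times in LOVO. How much each change moved the values was not tested. The nuclear scaling moved the median of all genes to 0.11 in HCT116. With TPM the members' median was -0.41 in LOVO and 0.46 between the spheroids, where the median of all genes was 0.15 and 0.21. At a threshold of 2 the counts were 0 in HCT116, 0 in LOVO, 3 between the adherent lines (18) and 0 between the spheroids (16), and at 0.5 they were 21, 51, 40 and 32. The cause was not tested. The other 42 medians and 46 counts stayed within 0.1 or within 1.5 times. Over 6 scalings and pseudocounts the direction was kept by 62 of 80 members in HCT116, 72 in LOVO, 69 between the adherent lines and 59 between the spheroids. limma called 0 members in the 9 alternative fits, with 0 to 14 at an unadjusted p under 0.05. Between the lines limma called 13 members, 12 to 14 in 7 alternative fits and 0 of 58735 genes without the filter, where 23 members had an unadjusted p under 0.05. Without members that share 40% of their transcript, 64 of 70 were lower in HCT116 and 69 of 70 in LOVO. The labels carry no replicate numbers, and the pairing of libraries by line is the covariate of the limma fit. Without that covariate 0 members had an unadjusted p under 0.05. Leaving out a library would leave a condition with none in that line.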
